A study of Mus musculus with 6 samples.

Results

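The genes described here make, burn and protect lipids: 56 symbols for fatty acid and sterol synthesis, mitochondrial beta-oxidation, acyl-CoA activation and lipid peroxidation, removal of peroxide and superoxide, and glutathione supply. They were chosen by name, with earlier results of these data known, and all 56 were found among the 35186 symbols of the count table. RNA was sequenced from memory B cells that bind the hapten NP, sorted from spleens of C57BL/6J mice. Of the libraries, 3 came from cells labelled Nix-/-Bnip3-/- (DKO) and 3 from wild-type cells (WT), each made from about 1000 cells. Nix (Bnip3l) and Bnip3 are receptors on the outer mitochondrial membrane that mark mitochondria for removal by autophagy. The labels do not give the age of the mice or whether the deletions were confined to B cells. They also do not say that replicates are different mice, and p-values then reflect only the variation between these libraries, which may be technical.

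Acetyl-CoA carried out of mitochondria as citrate is the building block of both fatty acids and cholesterol, and the SREBP transcription factors, held in the endoplasmic reticulum by INSIG until sterols run low, drive both syntheses. Beta-oxidation runs the other way inside mitochondria: fatty acids are activated to acyl-CoA, carried in by the carnitine shuttle and cut down to acetyl-CoA, with the electrons passed on through the flavoprotein ETF. Polyunsaturated lipids can be oxidized by radicals or lipoxygenases, and glutathione peroxidases, peroxiredoxins, thioredoxin and the NRF2 programme hold this in check. Memory B cells are long-lived, and their upkeep is known to depend on healthy mitochondria.

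Total counts ranged from 444461 to 517057 in DKO libraries and from 312908 to 500527 in WT libraries. At least 1 count was found for 23580 to 24787 symbols in DKO libraries, against 17831 to 18486 in WT libraries. Spearman correlations across the tested genes were 0.466 to 0.496 between DKO libraries and 0.152 to 0.157 between WT libraries. WT libraries correlated with DKO libraries at 0.135 to 0.203, a range that includes their values with each other. A count of 0 allows up to 3 counts, or 5.52 to 6.79 normalized CPM (counts divided by the TMM-scaled library size) in DKO libraries and 11.6 to 15.8 in WT libraries, for counting error only. Of the targeted genes, Bnip3 had 2, 24 and 11 counts in DKO libraries 1, 2 and 3 and 25, 62 and 6 counts in WT libraries 1, 2 and 3. Bnip3l had 10, 16 and 41 counts in DKO libraries and 1, 8 and 0 in WT libraries. The Bnip3l counts go against the labels, although reads outside a deleted exon would still be counted. Directions are therefore given for libraries labelled DKO against libraries labelled WT. The 10 markers of B cell identity summed to only 394 to 407 normalized CPM in DKO libraries and 341 to 642 in WT libraries. Among them, Cd79a had 0, 2 and 4 counts in DKO libraries and 3, 0 and 0 in WT libraries. Ms4a1 had more, with 42, 70 and 65 counts in DKO libraries and 28, 0 and 8 in WT libraries. Of the 5 tested, 2 lay above and 3 below 0. Cr2 was lower in every DKO library, and H2-Aa, which was not tested, was higher. The 11 markers of monocytes and macrophages, none of them at 0 throughout, summed to 507 to 839 normalized CPM in DKO libraries and 110 to 410 in WT libraries. Without Itgam and Lyz2 the sums were 155 to 244 in DKO libraries and 83.6 to 305 in WT libraries, and of the 6 tested markers 3 lay above and 3 below 0. The 10 stromal and endothelial markers summed to 575 to 595 in DKO libraries and 1005 to 2815 in WT libraries. Vwf alone made 2106 of this in WT library 3. Of the 9 tested, 2 lay above and 7 below 0, with Pecam1 higher and Col1a1 lower in every DKO library. As CPM of the library total the stromal and endothelial sums overlapped, at 577 to 625 against 519 to 1676. The 8 erythroid markers, of which Hba-a2 and Hbb-bs were at 0 throughout, summed to 22.1 to 32.9 in DKO libraries and 58.0 to 162 in WT libraries. These sums also overlapped as CPM of the library total, at 23.2 to 33.0 against 30.0 to 99.1. For the remaining marker lists the sums overlapped between groups, both as normalized CPM and as CPM of the library total. These lists were memory B cell, germinal centre B cell, plasma cell, T and NK cell, neutrophil and dendritic cell. Memory B cell markers took 309.4 to 438.7 CPM of the library total in DKO libraries and 239.7 to 1997.9 in WT libraries. The part of other cell types in the values below was not tested, and fewer cells of a type and less RNA per cell cannot be told apart.

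The counts of these genes were low and uneven, as the map of all 56 genes by library shows. At least 1 count was found for 50, 54 and 53 of the 56 in DKO libraries 1, 2 and 3, and for 48, 46 and 46 in WT libraries 1, 2 and 3. At the depth of the shallowest library the expected numbers were 48.9, 52.6 and 52.2 in DKO libraries and 48.0, 44.1 and 45.8 in WT libraries. Over all symbols of the table they were likewise higher in DKO libraries, at 22213, 22912 and 22278 against 17831, 16773 and 18398 in WT libraries. A count in every library was found for 31 genes, and 1 gene, Cpt1b, the muscle form of the carnitine shuttle's entry enzyme, had 0 counts throughout. Of the 3372 exonic bases of Cpt1b, 2744 are shared with Gm44502 on the same strand. How reads there were counted is not given, so its 0 counts do not settle whether it was expressed. The filter on low counts kept 33 of the 56 for testing, which also means that a gene could be kept through the group where it was high. For 10 of these 33, more than 50% of the summed normalized CPM lay in 1 library, or 30.3%, against 29.7% of all 8895 genes tested. The highest value was in a WT library for 23 of the 33 and in a DKO library for 10; over all genes tested, 62.2% were highest in a WT library.

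**Figure D1:**
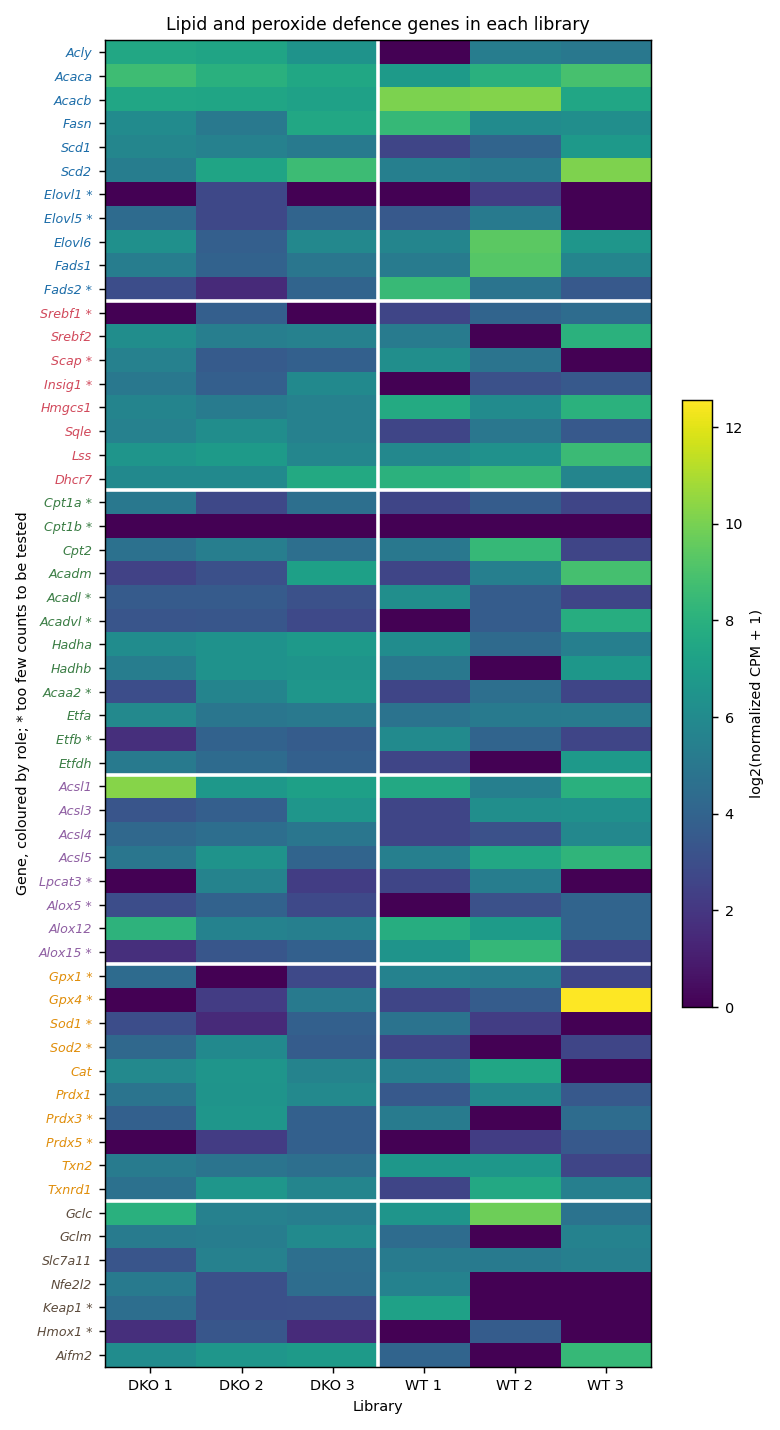
Level of each of the 56 genes (rows, coloured by role) in each library (columns, DKO left of WT), as log2 of normalized CPM plus 1; an asterisk marks the 23 genes that were not tested. Many genes are bright in 1 library, and the brightest value is Gpx4 in WT library 3.

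None of the 33 tested genes passed edgeR's quasi-likelihood test at an adjusted p of 0.05, where the background was 0.0% of 8895 genes (smallest adjusted p among the 33, 0.394). At an unadjusted p under 0.05 there was 1 gene higher in DKO libraries, Acly, and 1 lower, Fads1, against a background of 5.49% higher and 6.59% lower. The share among these genes was near or below that of all genes. DESeq2 called 1 of the 33, Fads1, lower in DKO libraries, and gave no adjusted p for Acsl1. The background of DESeq2, over the 8488 genes with an adjusted p, was 7.08% called in either direction and 4.51% called lower. The limma-voom fit called 0. The fitted log2 fold change (DKO over WT) was above 0 for 11 genes and below 0 for 22, with a median of -0.46, beside 45.5% above 0 and a median of -0.17 over all genes tested. Without WT library 3 the median over these genes was 0.40. With library totals alone as the scale, the median of all genes was 0.62 and that of these genes 0.36, and 19 of the 33 lay above 0. Directions are therefore relative to the shift of all genes.

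Separation of all 3 DKO libraries from all 3 WT libraries was seen for 6 of the 56 genes. Normalized CPM were higher in every DKO library for Acly, Sqle, Insig1 and Sod2, and lower in every DKO library for Acacb and Hmgcs1. Among tested genes this made 2 of 33 higher and 2 of 33 lower, against a background of 12.8% higher and 6.39% lower. Insig1 and Sod2 had too few counts to be tested, a class in which 8.21% of genes with a count were higher in every DKO library and 3.02% lower. The 4 higher genes kept this separation under each of the 4 other scalings tried. Acacb lost it with TMMwsp and upper quartile scaling, and both Acacb and Hmgcs1 lost it with library totals alone.

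**Figure D2:**
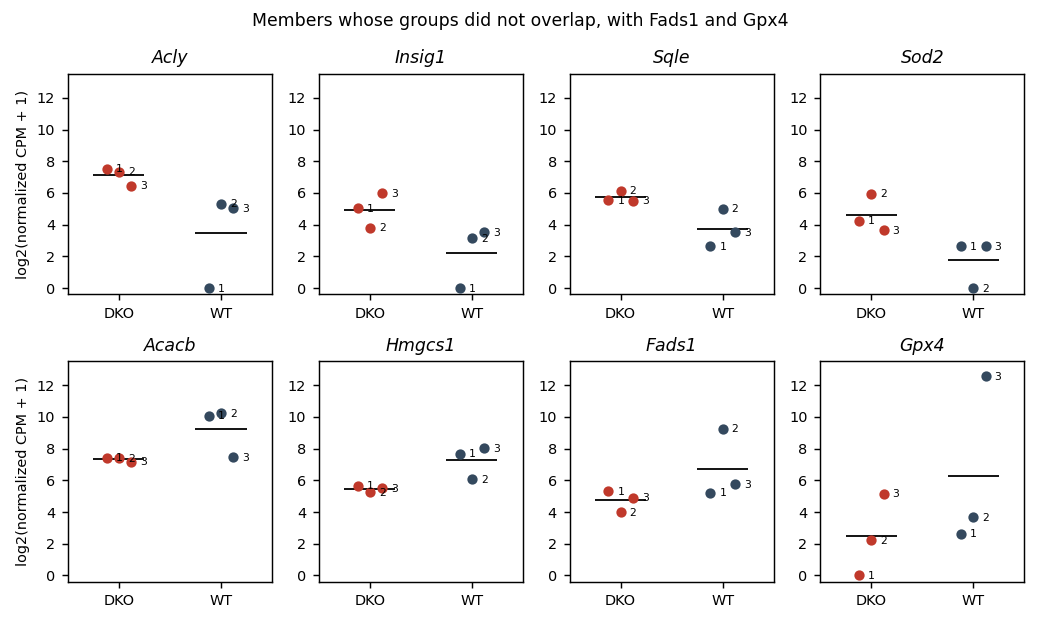
Values of the 6 genes whose groups did not overlap, and of Fads1 and Gpx4, as log2 of normalized CPM plus 1, with DKO left of WT; digits give the library number and the bar the mean of 3 libraries on this scale. Acly, Insig1, Sqle and Sod2 lie higher in DKO libraries and Acacb and Hmgcs1 lower, while Fads1 and Gpx4 each rest on 1 WT library.

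In fatty acid synthesis lay both the highest and the lowest log2 fold change of the 33 tested genes, those of Acly and Fads1. Acly (chromosome 11, 100476353 to 100528000, mm10), the ATP-citrate lyase that makes acetyl-CoA in the cytosol, had 81, 88 and 45 counts in DKO libraries 1, 2 and 3, and 0, 10 and 6 counts in WT libraries 1, 2 and 3. Every DKO library lay above every WT library, at 144 ± 50.5 normalized CPM against 23.4 ± 20.6 (SD, n = 3 each). In the fit, Acly was at 2.59 on the log2 scale (SE 1.16, edgeR adjusted p = 0.411). Leaving out 1 library at a time moved this value between 2.09 and 3.21, the highest without WT library 2. Acacb (chromosome 5, 114146535 to 114250761), the acetyl-CoA carboxylase at the mitochondrial surface whose product, malonyl-CoA, blocks fatty acid entry into mitochondria, had 76, 91 and 74 counts in DKO libraries and 205, 314 and 33 counts in WT libraries. The DKO libraries were close together at 161 ± 15.4 normalized CPM, against 819 ± 564 in WT libraries (SD, n = 3 each). WT library 3, at 173, was almost level with DKO library 1, at 172. Fitted over all 6 libraries, Acacb was at -2.35 on the log2 scale (SE 1.34, edgeR adjusted p = 0.471). Acaca, the cytosolic carboxylase that feeds fatty acid synthase, had 177, 135 and 92 counts in DKO libraries and 22, 64 and 92 in WT libraries, or 276 ± 114 against 282 ± 187 normalized CPM (SD, n = 3 each), with groups that overlapped.

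Among the elongation and desaturation enzymes, Fads1, Elovl6 and Fads2 had most of their signal in a single WT library. Fads1 (chromosome 19, 10182888 to 10196877), a desaturase of polyunsaturated fatty acids, had 17, 8 and 15 counts in DKO libraries and 7, 157 and 10 in WT libraries. Of its summed normalized CPM, 78.0% lay in WT library 2, and WT library 1 (36.6 normalized CPM) was below DKO library 1 (38.5). Its log2 fold change of -3.07 (SE 1.25, edgeR adjusted p = 0.394; DESeq2 adjusted p = 0.0382) was -0.66 without WT library 2, the library in which it was highest. Elovl6, the elongase of saturated and monounsaturated chains, was likewise highest in WT library 2, with 35, 7 and 30 counts in DKO libraries and 10, 177 and 18 in WT libraries (log2 fold change -2.47, SE 1.24, or -0.51 without WT library 2). Fads2, the neighbouring desaturase on chromosome 19, instead was highest in WT library 1, with 3, 1 and 8 counts in DKO libraries and 68, 7 and 2 in WT libraries, and was not tested. Scd2, a stearoyl-CoA desaturase, had 17, 87 and 203 counts in DKO libraries and 8, 9 and 215 in WT libraries. Scd1 had 24, 24 and 18 in DKO libraries and 1, 4 and 21 in WT libraries. Counts of the Scd genes are uncertain, since these neighbours are close copies of each other. Fasn, the fatty acid synthase, had 29, 18 and 96 counts in DKO libraries and 65, 17 and 14 in WT libraries. The elongase genes Elovl1 and Elovl5 had at most 9 counts in any library. Summed over the 11 genes, fatty acid synthesis took 1053, 899 and 1144 CPM of the library total (with no scaling factor) in DKO libraries and 1240, 1536 and 1285 in WT libraries. All DKO libraries lay below all WT libraries, but this rested on Acacb. Without it the sums were 882, 723 and 1000.3 in DKO libraries and 585, 909 and 1182 in WT libraries, and the groups overlapped. Of the 11 genes 8 were tested, 2 above and 6 below 0, with a median log2 fold change of -0.88.

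**Figure D3:**
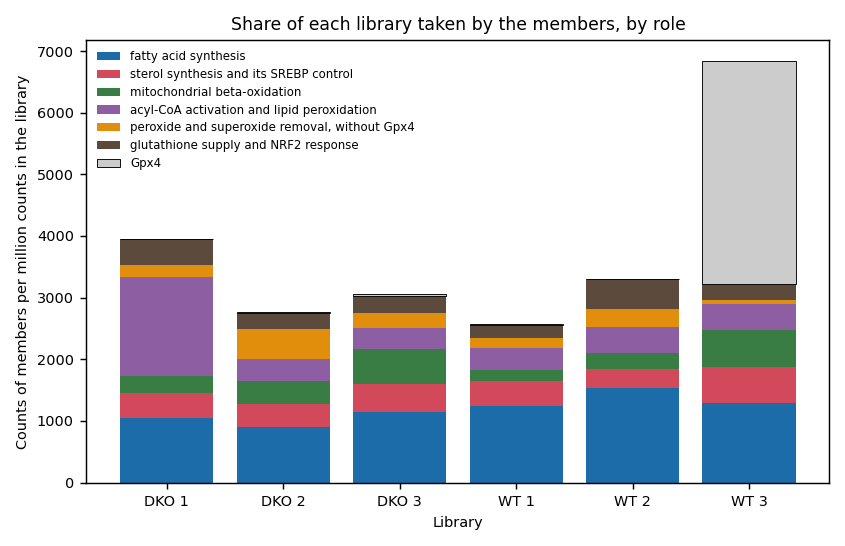
Counts of the 56 genes as CPM of each library's total, stacked by role, with Gpx4 drawn apart and DKO left of WT. The blue fatty acid synthesis segment is smaller in each DKO library than in each WT library with Acacb included, though not without it, acyl-CoA genes stand out in DKO library 1, and Gpx4 alone makes WT library 3 the tallest bar.

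Other genes of fatty acid synthesis had a median on the other side of 0, a difference that was not tested. Of 22 such genes 14 were tested, of which 11 were above and 3 below 0, with a median log2 fold change of 0.97, and 0 passed the adjusted test. Together the 22 took 1402, 1083 and 1233 CPM of the library total in DKO libraries and 524, 304 and 600 in WT libraries. On this scale the median log2 fold change of all genes tested was itself 0.62. Sums of the other beta-oxidation genes separated too, at 1503, 1543 and 1657 in DKO libraries against 1400, 1013 and 938 in WT libraries. Those of other genes of the remaining roles overlapped. The smallest p among the higher ones belonged to Ptplad1, a dehydratase of fatty acid elongation, with 107, 39 and 19 counts in DKO libraries and 4, 1 and 3 in WT libraries (log2 fold change 3.11, SE 1.15, edgeR adjusted p = 0.390). Among the lower ones it belonged to Elovl7, an elongase, at -2.01 (SE 1.19), with groups that overlapped. Slc25a1, the mitochondrial citrate carrier, was not tested and lay lower in every DKO library, with 0, 0 and 2 counts in DKO libraries and 3, 18 and 4 in WT libraries; it was named after its values were seen.

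In sterol synthesis and its SREBP control, normalized CPM of Hmgcs1 were lower in every DKO library, and those of Sqle and Insig1 were higher. Hmgcs1 (chromosome 13, 119690379 to 119708260), which makes HMG-CoA from acetyl-CoA, had 22, 20 and 23 counts in DKO libraries and 39, 17 and 50 in WT libraries. With TMM scaling, DKO libraries lay at 43.7 ± 6.51 normalized CPM and WT libraries at 177 ± 101 (SD, n = 3 each), with no overlap. Scaled for depth by library totals alone, the groups of Hmgcs1 overlapped. For Hmgcs1 the fit gave a log2 fold change of -2.01 (SE 0.95, edgeR adjusted p = 0.418), which stayed between -2.37 and -1.54 with each library left out. Sqle (chromosome 15, 59315077 to 59331192), the squalene epoxidase that commits the pathway to sterols, had 20, 38 and 23 counts in DKO libraries and 1, 8 and 2 in WT libraries, or 53.2 ± 14.5 against 15.5 ± 13.6 normalized CPM (SD, n = 3 each). All DKO libraries lay above all WT libraries, with a log2 fold change of 1.71 (SE 0.99, edgeR adjusted p = 0.477), or 2.75 without WT library 2. Insig1 (chromosome 5, 28071363 to 28078662), the membrane protein that retains SREBP when sterols are plentiful, had 14, 7 and 32 counts in DKO libraries and 0, 2 and 2 in WT libraries. All DKO libraries lay above all WT libraries, at 35.5 ± 24.8 against 6.08 ± 5.44 normalized CPM (SD, n = 3 each), but the counts were too low to be tested.

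Acly, Hmgcs1 and Insig1 are textbook SREBP targets, and their groups separated in different directions, so the 250 bases upstream of their starts are shown, from RefSeq (build GRCm38.p6), written in the direction of transcription. No RefSeq window was matched for Sqle, whose groups also separated. Capitals mark the sterol element letters TCACNCCAC and the CCAAT box, CCAAT, each searched on both strands, so that ATTGG is a CCAAT box on the opposite strand; the motifs do not overlap each other. The windows lie at chr11:100528001-100528250 on the minus strand for Acly, chr13:119690101-119690350 on the plus strand for Hmgcs1 and chr5:28071162-28071411 on the plus strand for Insig1.
Acly: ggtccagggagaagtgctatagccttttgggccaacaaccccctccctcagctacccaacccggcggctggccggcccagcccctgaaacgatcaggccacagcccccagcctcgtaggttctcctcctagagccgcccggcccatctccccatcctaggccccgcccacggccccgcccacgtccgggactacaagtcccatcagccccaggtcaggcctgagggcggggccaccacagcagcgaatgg
Hmgcs1: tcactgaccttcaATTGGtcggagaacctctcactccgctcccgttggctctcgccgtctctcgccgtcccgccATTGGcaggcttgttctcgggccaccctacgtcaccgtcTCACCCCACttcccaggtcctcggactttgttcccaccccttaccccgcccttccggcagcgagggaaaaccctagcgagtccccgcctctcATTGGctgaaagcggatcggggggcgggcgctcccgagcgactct
Insig1: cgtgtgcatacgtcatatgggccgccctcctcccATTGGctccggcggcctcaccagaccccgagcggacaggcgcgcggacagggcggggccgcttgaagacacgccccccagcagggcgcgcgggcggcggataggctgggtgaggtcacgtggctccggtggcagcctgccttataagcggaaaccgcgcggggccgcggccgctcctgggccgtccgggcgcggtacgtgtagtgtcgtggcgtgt
The Hmgcs1 window held the sterol element once, as TCACCCCAC beginning 137 bases upstream, and CCAAT boxes beginning 237, 176 and 45 bases upstream. The Insig1 window held a CCAAT box 216 bases upstream and no match to the sterol element letters, and the Acly window held neither. Only these letters in these windows were searched, so a sterol element written otherwise or lying elsewhere would be missed. Of all 32851 promoter windows of this length, 1.05% held the sterol element and 33.8% a CCAAT box. Of the 59 windows of 47 of the 56 genes, 2 held the sterol element (those of Hmgcs1 and Acsl1) and 29 a CCAAT box. A match of letters is a description and not a bound site.

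The remaining sterol genes overlapped between groups. Lss, the cyclase that forms lanosterol, had 41, 62 and 28 counts in DKO libraries and 11, 21 and 71 in WT libraries (log2 fold change -0.96, SE 1.01, or 0.40 without WT library 3). Dhcr7, which completes cholesterol, had 27, 33 and 101 counts in DKO libraries and 52, 92 and 10 in WT libraries (-1.10, SE 1.05, or -1.80 without DKO library 3). Among the regulators, Srebf2, the SREBP of sterol synthesis, had 31, 22 and 23 counts in DKO libraries and 7, 0 and 50 in WT libraries. Its escort Scap had 20, 6 and 7 counts in DKO libraries and 14, 7 and 0 in WT libraries. Srebf1, the SREBP of fatty acid synthesis, had 0, 7 and 0 counts in DKO libraries and 1, 4 and 4 in WT libraries. Srebf2 was thus even across DKO libraries and uneven across WT libraries. The median of the 5 tested genes was -0.96, with 1 above and 4 below 0. Without WT library 3 it was 0.40, over the genes that passed the filter in that fit. The role as a whole took 377 to 460 CPM of the library total in DKO libraries and 302 to 591 in WT libraries. Of 27 other sterol genes 11 were tested, 6 above and 5 below 0 (median 0.12), with 0 passing. The smallest p belonged, on the higher side, to Acat2, a thiolase of the first step, at 1.36 (SE 1.35), and on the lower side to Cyp51, the lanosterol demethylase, at -2.32 (SE 1.23, edgeR adjusted p = 0.447). The groups of Cyp51 overlapped, with 11, 4 and 16 counts in DKO libraries and 49, 2 and 11 in WT libraries.

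**Figure D4:**
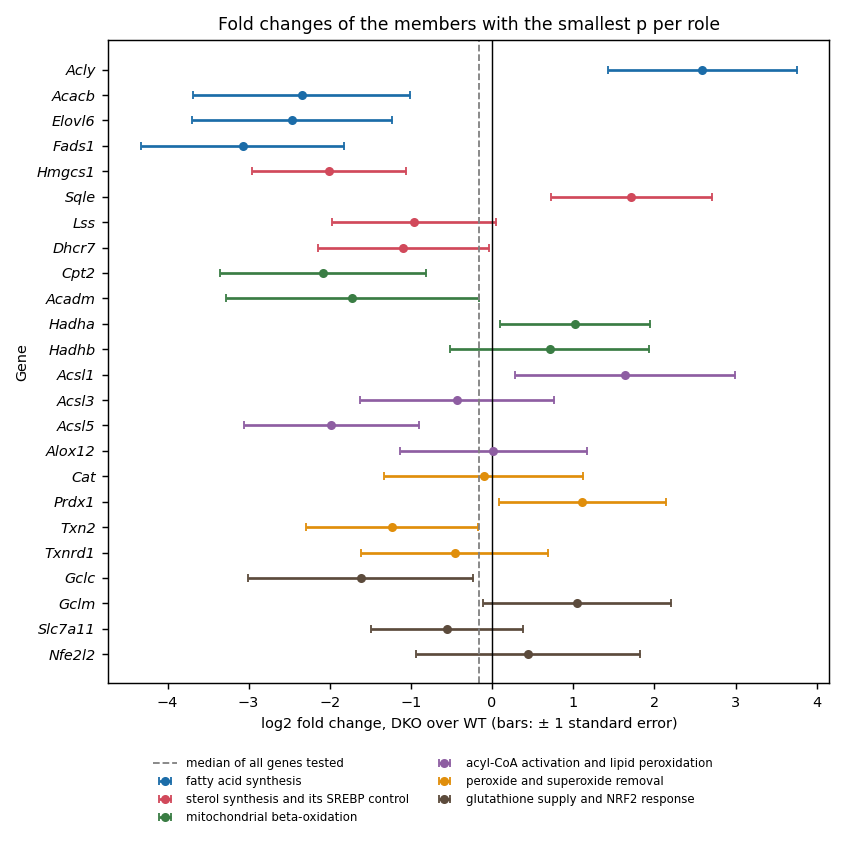
Log2 fold change (DKO over WT) with its standard error for the 24 genes with the smallest p in their role, up to 4 per role, coloured by role; the dashed line is the median of all genes tested, -0.17. Genes of each role lie on both sides of 0, from 2.59 for Acly to -3.07 for Fads1, and no gene passed the adjusted test.

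None of the 12 beta-oxidation genes among the 56 separated the groups with TMM scaling. Hadha did with TMMwsp, upper quartile scaling and library totals alone, and Etfa with library totals alone. Cpt1a, the liver-type enzyme that loads fatty acids onto carnitine and the usual control point, had 14, 3 and 12 counts in DKO libraries and 1, 3 and 1 in WT libraries, too few to be tested. Cpt2, which reverses that step inside mitochondria, had 11, 22 and 12 counts in DKO libraries and 6, 88 and 1 in WT libraries (log2 fold change -2.08, SE 1.27, edgeR adjusted p = 0.495). Its high value was WT library 2, without which the log2 fold change was 0.73. Of the acyl-CoA dehydrogenases, Acadm, which acts on medium chains, had 2, 4 and 73 counts in DKO libraries and 1, 11 and 88 in WT libraries, the last library being the highest of each group. Its log2 fold change was -1.72 (SE 1.55), or 1.14 without WT library 3. Acadvl, for very long chains, had 4, 5 and 3 counts in DKO libraries and 0, 3 and 43 in WT libraries. Acadl, for long chains, had 5, 6 and 4 counts in DKO libraries and 14, 3 and 1 in WT libraries, and neither was tested.

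The trifunctional protein, which carries out the later steps on long chains, had similar counts in both subunits in DKO libraries. Hadha, its alpha subunit, had 30, 45 and 57 counts in DKO libraries and 13, 5 and 8 in WT libraries, or 87.0 ± 21.6 against 43.1 ± 24.3 normalized CPM (SD, n = 3 each). DKO library 1 and WT library 1 were level at 67.9, and Hadha was at 1.02 on the log2 scale (SE 0.93, edgeR adjusted p = 0.656). Hadhb, the beta subunit, had 17, 45 and 47 counts in DKO libraries and 6, 0 and 19 in WT libraries (log2 fold change 0.71, SE 1.23, or 2.28 without WT library 3). Both subunits are transcribed from neighbouring genes on chromosome 5, and both fitted values lay above 0 in every fit that left out 1 library. Acaa2, the thiolase that ends each round, had 3, 27 and 49 counts in DKO libraries and 1, 6 and 1 in WT libraries and was not tested. Etfa, a subunit of the electron-transfer flavoprotein, was among the most even, with 26, 16 and 17 counts in DKO libraries and 5, 9 and 7 in WT libraries, or 40.4 ± 16.0 against 32.6 ± 5.66 normalized CPM (SD, n = 3 each). Etfb, the other subunit, had 1, 8 and 6 counts in DKO libraries and 12, 4 and 1 in WT libraries. Etfdh, which hands the electrons to ubiquinone, had 15, 11 and 7 counts in DKO libraries and 1, 0 and 20 in WT libraries. The 6 tested genes divided into 3 above and 3 below 0, with a median of -0.19. It lay above 0 with any 1 library left out (0.084 to 1.20), in fits where 5 to 8 of the 12 genes passed the filter. Of the 26 other beta-oxidation genes 16 were tested, 6 above and 10 below 0 (median -0.40), and 0 passed. Acad12, of the acyl-CoA dehydrogenase family, had the smallest p, with 30, 28 and 67 counts in DKO libraries and 1, 7 and 2 in WT libraries (log2 fold change 2.48, SE 1.03, edgeR adjusted p = 0.396). On the lower side it was Acaa1a, a peroxisomal thiolase, at -2.73 (SE 1.48).

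Acyl-CoA synthetases activate fatty acids before any use, and some of their counts were high in a single library. Acsl1, which is known to direct fatty acids towards oxidation in heart and fat, had 557, 55 and 73 counts in DKO libraries and 37, 11 and 47 in WT libraries. Of its summed normalized CPM, 63.5% lay in DKO library 1. Acsl1 was at 1.64 on the log2 scale (SE 1.36, edgeR adjusted p = 0.622), or -0.24 without that library. Acsl5 lay the other way, with 13, 47 and 8 counts in DKO libraries and 8, 47 and 57 in WT libraries (-1.98, SE 1.08, edgeR adjusted p = 0.456), and between -2.82 and -1.28 with 1 library left out. Acsl3 had 4, 7 and 49 counts in DKO libraries and 1, 19 and 15 in WT libraries (-0.43, SE 1.19, or -2.11 without DKO library 3). Acsl4 activates polyunsaturated chains to acyl-CoA for insertion into phospholipids and so sensitizes cells to ferroptosis. It had 8, 12 and 15 counts in DKO libraries and 1, 2 and 11 in WT libraries, or 23.1 ± 5.54 against 23.6 ± 29.6 normalized CPM (SD, n = 3 each). Its partner Lpcat3, which completes that insertion, had 0, 26 and 2 counts in DKO libraries and 1, 10 and 0 in WT libraries. Acsl4 thus had near-equal means in both groups, with the spread on the WT side.

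Of the lipoxygenases, Alox12 had 122, 25 and 22 counts in DKO libraries and 43, 31 and 3 in WT libraries, with nearly equal means of 122 ± 134 and 120 ± 104 normalized CPM (SD, n = 3 each). Its log2 fold change was 0.02 (SE 1.15), or -1.30 without DKO library 1. Alox15, which can oxidize lipids within membranes, had 1, 5 and 7 counts in DKO libraries and 17, 86 and 1 in WT libraries and was not tested, since the counts were high in too few libraries. Alox5, the first enzyme of leukotriene synthesis, had at most 8 counts in any library. The 5 tested genes of this role had 2 above and 3 below 0 and a median of -0.01. Of 24 other genes of lipid activation, lipid oxidation and iron handling 13 were tested, 4 above and 9 below 0 (median -0.77), with 0 passing edgeR's test. Ptgs1, the constitutive cyclooxygenase, had 3, 1 and 5 counts in DKO libraries and 29, 39 and 7 in WT libraries, lower in every DKO library (log2 fold change -4.14, SE 1.13, edgeR adjusted p = 0.390; DESeq2 adjusted p = 0.00203). Acsl6, a further acyl-CoA synthetase, had 23, 64 and 543 counts in DKO libraries and 3, 9 and 6 in WT libraries, higher in every DKO library (3.88, SE 1.39, edgeR adjusted p = 0.390; DESeq2 adjusted p = 0.0214).

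Genes of peroxide and superoxide removal had few counts apart from 1 value of Gpx4. Gpx4 (chromosome 10, 80047166 to 80056439), the peroxidase that reduces lipid hydroperoxides in membranes and the main brake on ferroptosis, had 0, 2 and 18 counts in DKO libraries and 1, 3 and 1153 in WT libraries. WT library 3 alone held 99.1% of its summed normalized CPM, and in the other 5 libraries it stayed at or below 34.9 normalized CPM, so it was not tested, and its WT mean rests on that library. Without Gpx4 the 56 genes took 3949, 2756 and 3026 CPM of the library total in DKO libraries and 2563, 3297 and 3226 in WT libraries. Sod2 (chromosome 17, 13006846 to 13040063), the superoxide dismutase of the mitochondrial matrix, had 8, 33 and 6 counts in DKO libraries and 1, 0 and 1 in WT libraries. Each DKO library lay above all WT libraries, at 30.2 ± 26.7 against 3.49 ± 3.02 normalized CPM (SD, n = 3 each). WT values of Sod2 were within what a count of 0 allows, and it was not tested. Sod1, its cytosolic counterpart, had 3, 1 and 7 counts in DKO libraries and 5, 1 and 0 in WT libraries. Gpx1, the general glutathione peroxidase, had 9, 0 and 3 counts in DKO libraries and 9, 10 and 1 in WT libraries.

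Catalase and the thioredoxin system gave values near 0 or on both sides. Cat had 26, 50 and 25 counts in DKO libraries and 8, 44 and 0 in WT libraries, or 66.4 ± 22.8 against 70.6 ± 88.6 normalized CPM (SD, n = 3 each). The fitted value was -0.10 (SE 1.23), or 1.70 without WT library 2. Prdx1, the cytosolic peroxiredoxin, had 12, 48 and 31 counts in DKO libraries and 2, 15 and 2 in WT libraries (1.11, SE 1.03, or 2.49 without WT library 2). The mitochondrial peroxiredoxin Prdx3 had 6, 52 and 7 counts in DKO libraries and 7, 0 and 4 in WT libraries. Prdx5 had at most 7 in any library, and neither was tested. Txn2, the mitochondrial thioredoxin that recharges Prdx3, was even across DKO libraries with 16, 15 and 12 counts, against 19, 26 and 1 in WT libraries (-1.23, SE 1.06, edgeR adjusted p = 0.639). Txnrd1, the cytosolic thioredoxin reductase, had 11, 52 and 27 counts in DKO libraries and 1, 49 and 8 in WT libraries (-0.46, SE 1.15, or 1.32 without WT library 2). With 4 of 10 genes tested, 1 above and 3 below 0, the median was -0.28. Without WT library 2 it was 1.32, over the genes that passed the filter in that fit. Among 24 other redox genes 6 were tested, 2 above and 4 below 0 (median -0.53), with 0 passing edgeR's test. Glrx3, a glutaredoxin of iron-sulfur cluster handling, had 18, 90 and 57 counts in DKO libraries and 4, 0 and 1 in WT libraries (3.61, SE 1.28, edgeR adjusted p = 0.390; DESeq2 adjusted p = 0.0294), and on the lower side Sesn3, a sestrin, was at -1.79 (SE 1.21).

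None of the 7 genes of glutathione supply and the NRF2 response among the 56 separated the groups with TMM scaling, and with library totals alone Gclm did. Gclc and Gclm, the catalytic and modifier subunits of the enzyme that limits glutathione synthesis, lay on different sides. Gclc had 109, 24 and 21 counts in DKO libraries and 18, 232 and 5 in WT libraries (log2 fold change -1.62, SE 1.39, edgeR adjusted p = 0.636). Of its summed normalized CPM 66.5% lay in WT library 2, without which the value was 0.91. Gclm had 16, 21 and 33 counts in DKO libraries and 4, 0 and 9 in WT libraries (1.05, SE 1.16, edgeR adjusted p = 0.715). Slc7a11, the cystine importer that feeds glutathione, was among the most even of the 56 genes, with 4, 24 and 12 counts in DKO libraries and 7, 9 and 8 in WT libraries, or 25.5 ± 17.7 against 37.8 ± 3.77 normalized CPM (SD, n = 3 each; log2 fold change -0.55, SE 0.94). Nfe2l2, which encodes NRF2, had 15, 4 and 11 counts in DKO libraries and 9, 0 and 0 in WT libraries. Its log2 fold change of 0.44 (SE 1.38) was 6.06 without WT library 1, where all its WT counts lay, and such a fit against 0 counts depends on the prior count. Keap1, the sensor that holds NRF2 down, had 10, 4 and 4 counts in DKO libraries and 28, 0 and 0 in WT libraries, again all in WT library 1. Hmox1, an NRF2 target that breaks down haem and is also a macrophage marker here, had 1, 5 and 1 counts in DKO libraries and 0, 3 and 0 in WT libraries. Aifm2, the ferroptosis suppressor that regenerates ubiquinol, had 30, 53 and 59 counts in DKO libraries and 3, 0 and 64 in WT libraries. It was even in the DKO group and highest in WT library 3. The 5 tested genes had 2 above and 3 below 0 and a median of -0.32.

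Of 25 other genes of this role 7 were tested, 3 above and 4 below 0 (median -0.80), with 0 passing edgeR's test. Mafg, a small MAF protein that pairs with NRF2, had 1, 11 and 8 counts in DKO libraries and 11, 29 and 15 in WT libraries, lower in every DKO library (log2 fold change -2.67, SE 1.04, edgeR adjusted p = 0.390; DESeq2 adjusted p = 0.0360). On the higher side Gsr, glutathione reductase, was at 1.67 (SE 1.25). Over all 67 tested genes of the 148 other pathway genes, 6 (8.96%) were higher and 3 (4.48%) lower at an unadjusted p under 0.05, against 5.49% and 6.59% of all genes. DESeq2 called 2 higher (Acsl6 and Glrx3) and 3 lower (Ptgs1, Mafg and Gsta4, the last named after its values were seen), or 7.46% of the 67, against 7.08% of all genes with a DESeq2 adjusted p. Mvk and Gss are among the 67 but had no DESeq2 adjusted p. All 3 DKO libraries were above all WT libraries for 8 of the 67 (11.9%) and below for 3 (4.48%), against 12.8% and 6.39% of all genes tested. These shares lay near those of all genes. The same 59 windows, of 47 of the 56 genes of all roles, were searched for the NRF2 element letters TGACNNNGC on both strands. It was found in 6 of them, those of Gclm, Nfe2l2, Prdx1, Txnrd1, Sod1 and Dhcr7, and in 10.2% of all windows.

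**Figure D5:**
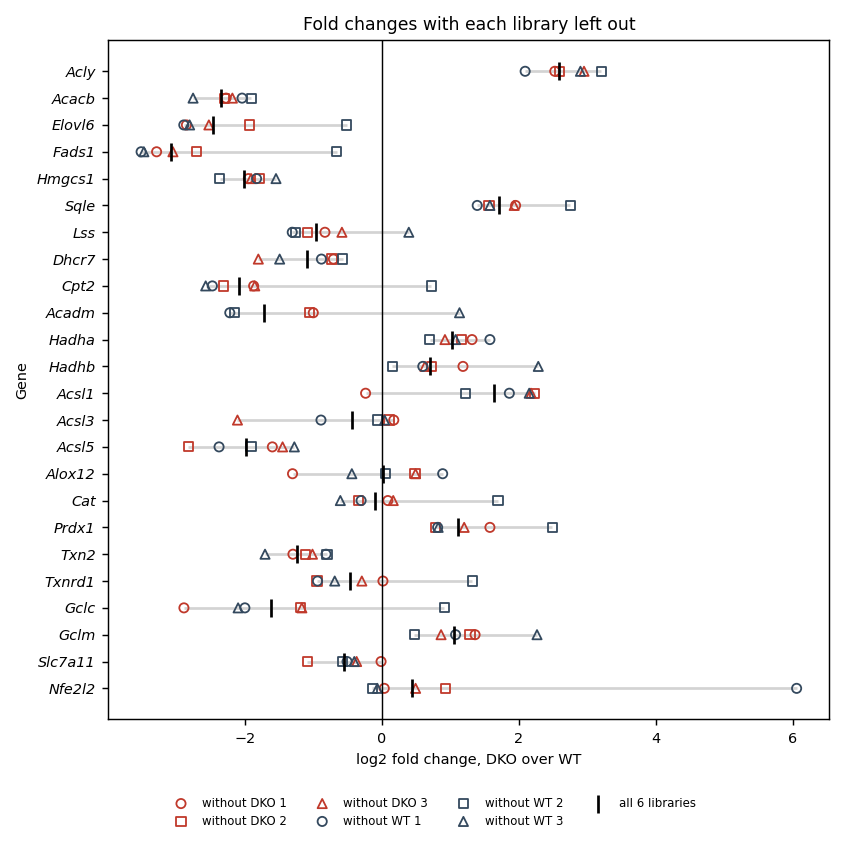
Log2 fold change (DKO over WT) of the 24 genes named by smallest p per role with all 6 libraries (black bars) and with each library left out (red, DKO libraries; dark blue, WT libraries). Leaving out WT library 2 moved Fads1 to -0.66, Elovl6 to -0.51 and Cpt2 to 0.73, while Acly, Acacb, Hmgcs1 and Sqle stayed on their side of 0.

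How far 1 library set these values was read by leaving each out in turn. Of the 33 tested genes, 27 moved by over 1.5-fold and 18 changed sign in at least 1 such fit. Among the 24 shown, the moves under 1.5-fold were those of Acacb, Hmgcs1, Hadha, Txn2 and Slc7a11. Per kilobase of exon, the highest mean levels in DKO libraries were 47.8 normalized CPM per kb for Acsl1, 36.1 for Scd2, 33.3 for Acaa2, 29.7 for Alox12 and 29.3 for Gclc. In WT libraries Gpx4 came first with a mean of 1174, nearly all from WT library 3, followed by Gclc, Acacb at 85.0 and Scd2 at 73.6. Neighbours in either of these orders differed by less than the spread of their libraries. Across the 56 genes, counts correlated with exonic length at a Spearman rho of 0.434 to 0.553 in DKO libraries and 0.122 to 0.444 in WT libraries, a description in which all genes share the depth of their library.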

How the data were processed

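RNA was measured in 3 DKO and 3 WT libraries. Per the labels' protocols, some 1000 sorted cells gave each library, prepared as polyA-enriched cDNA with a kit meant for single cells. In the submitters' processing notes the build mm10 and the tools STAR, CASAVA, edgeR and R 3.6.3 are listed without roles. The authors deposited integer read counts by gene symbol, without normalization; which program counted, with which annotation and whether by strand, is not given in the sources used here. Reads of overlapping genes can therefore not be told apart. Exons of 15 of the 56 genes, 6 of them among the 24 named by p (Hmgcs1, Lss, Acsl1, Acsl3, Acsl5 and Gclm), share over 200 bases with another annotated gene. Amplified reads without molecular identifiers are not independent molecules, so floors of 3 counts cover counting error only.

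Counts were tested over the whole table with edgeR 4.0.16 (R 4.3.3, limma 3.58.1): filterByExpr with a minimum count of 10 kept 8895 genes, libraries were scaled by TMM (factors 1.28, 1.38 and 1.28 for DKO libraries 1, 2 and 3, and 0.812, 0.695 and 0.785 for WT libraries 1, 2 and 3), and the robust quasi-likelihood F test compared DKO with WT without covariates. The Benjamini-Hochberg adjustment ran over all genes tested, with a threshold of 0.05. A standard error (SE) was taken as the absolute log2 fold change over the root of F. The steps were also run on simulated counts with known changes, but the size of change that could be recovered is not given here. The fitted coefficient of variation between libraries beyond counting error, common to all genes, was 0.915. Alternatives were other scalings, filters, DESeq2 1.42.0, limma-voom, no robust estimation, a threshold of 0.1, a replicate block, and each library left out. Equal replicate numbers were not tied to an animal or day by the labels.

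Fold changes are given for the up to 4 tested genes with the smallest p in each of the 6 roles, and for the other pathway genes for the 1 with the smallest p in each direction; Gsta4, Slc25a1 and Gpx4 were added after their values were seen, as were the sums without Acacb and without Itgam and Lyz2. The 56 genes, their roles and the lists of other genes were chosen with earlier results of these data known. Positions and lengths of exons came from GENCODE mouse release 21 (mm10), matched for all 56 genes, and promoters from RefSeq (GRCm38.p6), matched for 47. Acacb's window starts inside the GENCODE gene and was not printed.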

Additional observations from a re-analysis of the deposited data

How the results depend on the processing

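The count of genes called across the table was 0 in the edgeR fit and 0 with every other scaling, a mean CPM of at least 10, limma-voom, no robust estimation, a threshold of 0.1, the replicate block and each library left out. It was 130 with no filter on low counts (22 higher and 108 lower in DKO), 601 in DESeq2 (218 higher and 383 lower) and 254 in DESeq2 with no filter, which was added after the data were seen. Of the 56 genes 1, Fads1, was called, by DESeq2 with the filter; 0 were called in the other settings. Same-numbered DKO and WT libraries hardly deviated together (correlations of 0.0227, 0.0265 and 0.0368). WT libraries correlated with each other at only 0.152 to 0.157, so this check cannot decide whether same-numbered libraries were paired.

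Median log2 fold changes, each over the genes that passed that setting's filter, moved as follows. For fatty acid synthesis (-0.88) the median was -0.50 in limma-voom, -0.41 with no filter, -0.16 with library totals alone, -0.30 with the replicate block and between -1.72 and -0.17 with 1 library left out. For sterol synthesis (-0.96) leaving out 1 library gave values between -1.07 and 0.40. For beta-oxidation (-0.19) it was 0.57 with library totals alone, 0.64 with the replicate block and between 0.084 and 1.20 with 1 library left out. For peroxide and superoxide removal (-0.28) leaving out 1 library gave values between -0.95 and 1.32, and for glutathione supply (-0.32) the median was 1.39 in limma-voom and 1.59 with the replicate block. For all tested members (-0.46) it was 0.15 in limma-voom, -0.091 with no filter, 0.36 with library totals alone, 0.12 with the replicate block, -0.13 with upper quartile scaling and between -0.51 and 0.40 with 1 library left out. For acyl-CoA activation and lipid peroxidation (-0.01) it was 0.74 with library totals alone and between -0.77 and 0.13 with 1 library left out, moves within the spread between libraries. Separation of all libraries was seen for 4 genes higher and 2 lower with TMM, for 7 higher and 0 lower with library totals alone, for 5 higher and 1 lower with both TMMwsp and upper quartile scaling, and for 4 higher and 3 lower with DESeq2 size factors; these counts under other scalings were added after the data were seen.

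Of the 24 named genes, 5 changed sign in a setting other than leaving out a library. Cat (-0.10) was at 1.78 in limma-voom, 0.12 with a mean CPM of at least 10, 0.18 with no filter, 0.77 with library totals alone, 0.88 with the replicate block and 0.22 with upper quartile scaling. Txnrd1 (-0.46) was at 0.53 in limma-voom, 0.43 with library totals alone and 0.28 with the replicate block. With library totals alone Acsl3 was at 0.36 and Slc7a11 at 0.24, and Alox12 was at -0.14 both in DESeq2 and with its size factors. Leaving out 1 library at a time changed the sign of 10 genes, with these ranges: Lss -1.31 to 0.40, Cpt2 -2.57 to 0.73, Acadm -2.22 to 1.14, Acsl1 -0.24 to 2.23, Acsl3 -2.11 to 0.18, Alox12 -1.30 to 0.89, Cat -0.60 to 1.70, Txnrd1 -0.95 to 1.32, Gclc -2.89 to 0.91, Nfe2l2 -0.14 to 6.06. The cause was not tested. The depth, at 1.84 to 5.25 normalized CPM per count, leaves genes with under about 10 counts undecided. Higher counts did not settle a gene either. Acsl1, with up to 557 counts in a library, and Gclc, with up to 232, changed sign with 1 library left out, and no gene passed the main edgeR test.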
